A study of Homo sapiens with 4 samples.

Results

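The comparison of both drugs with the control set the library of TOV21G cells given As2O3 and GSK458 together against the library of cells given neither. It was defined by the sample labels, and it used 2 of the 4 libraries of the series. Of the 26255 gene symbols in the deposited table, 12202 averaged at least 1 FPKM across all 4 libraries and were compared. FPKM is a count of fragments divided by the length of the transcript and by the size of the library. Another 58 symbols of small RNAs passed that mean and were left out, because short genes are poorly measured in libraries of poly(A) RNA. TOV21G is a human cell line from an ovarian clear cell carcinoma. The combination culture received As2O3 (arsenic trioxide) at 1 µM and GSK458, an inhibitor of the kinases PI3K and mTOR, at 0.1 µM, each for 48 h. One culture received As2O3 alone at 1 µM and another GSK458 alone at 0.1 µM, also for 48 h, and their values are printed beside those of the comparison. The control received no drug, and the sources used here do not give its time in culture.

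Each condition was 1 library of 1 line with no replicate, so differences are given without any replicate error or test. A difference is the log2 of FPKM + 1 with both drugs minus that in the control, a scale that understates differences of low genes. "At least 2-fold" means a difference of 1 or more in size on that scale. Read counts cannot be had from FPKM alone, and the depth in reads is unknown. Steps among low values put the depth of the combination library at 85.8% of the control's. FPKM sums were 566797 with both drugs and 543975 in the control, and 16269 and 16191 symbols were above 0 in those libraries. The single-drug libraries had FPKM sums of 577409 with As2O3 and 588892 with GSK458. Endothelial markers were near 0 throughout, with 7 of 8 at 0 in both compared libraries. Summed levels over the 4 libraries were 2.11 to 4.79 FPKM for 8 fibroblast markers and 1.18 to 4.41 FPKM for 8 immune markers, led by COL1A1 and CD68. PTPRC, the pan-leukocyte phosphatase, was at 0 in all 4. CD68, a lysosomal protein of macrophages, was at 2.63 FPKM with both drugs, 4.15 with As2O3, 1.12 with GSK458 and 0.78 in the control, and its part in the results was not tested. Fewer cells in a given state and less RNA per cell cannot be told apart in such bulk RNA.

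The line's own markers were checked against its label. PAX8, a Müllerian lineage factor, and ANXA4, an annexin, were at 88.7 and 287 FPKM with both drugs and at 96.8 and 310 FPKM in the control. Other genes often used for this tumour were low. NAPSA, the protease napsin A, was at 1.06 FPKM with both drugs and 0.66 in the control, and the epithelial adhesion gene CDH1 was at 0.05 and 0.22. The keratins KRT8 and KRT18 were at 168 and 241 FPKM with both drugs and at 206 and 166 in the control.

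Both drugs act on well studied pathways. Arsenic binds thiols of proteins such as KEAP1, which otherwise delivers the transcription factor NRF2 for degradation. Freed NRF2, paired with small MAF proteins, turns on genes for glutathione, thioredoxin, NADPH and iron handling. PI3K and mTOR pass growth factor and nutrient signals to protein, lipid and nucleotide synthesis and to the cell cycle. AKT downstream of PI3K keeps FOXO factors out of the nucleus, so FOXO targets are commonly read as a gauge of PI3K signalling. mTOR also promotes translation of ribosomal protein messages and restrains autophagy.

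With both drugs 378 genes (3.1%) were at least 2-fold higher than in the control and 514 (4.21%) at least 2-fold lower, so 892 (7.31%) were called in either direction. The median difference of all genes was −0.01, and 78.6% of genes lay within 1.5-fold. A 4-fold difference was reached by 36 genes upward and 51 downward, and an 8-fold one by 12 upward and 3 downward. Of the called genes 311 of the higher and 441 of the lower had at least 5 FPKM in 1 of the 2 libraries. The called share was 3.09% higher and 3.95% lower for genes averaging 1 to 2 FPKM, and 4.85% and 5.53% among those of at least 100 FPKM. At the edge of the call, GADD45A had a difference of 1.01, and AKR1C1 of 1.00 lay just below it.

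**Figure D1:**
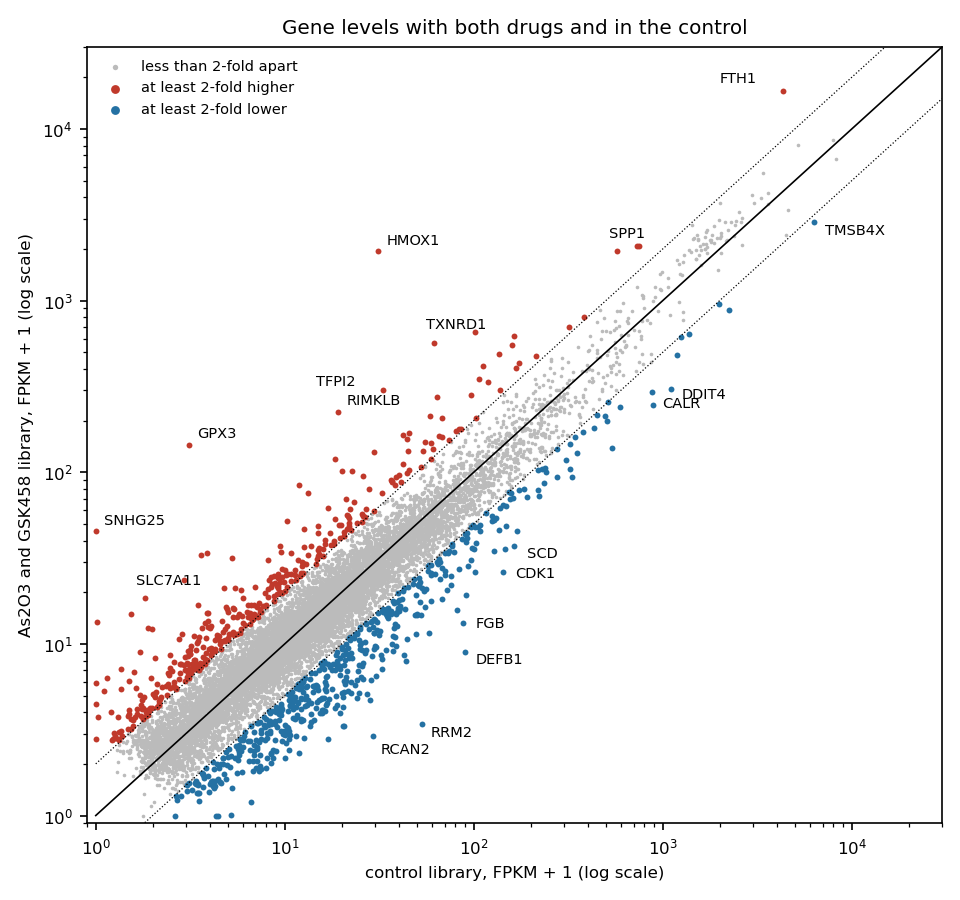
Level of each of 12202 genes with both drugs (vertical) against the control (horizontal), as FPKM + 1 on log axes. The solid line marks equal levels, dotted lines mark 2-fold differences, and red and blue points are the 378 higher and 514 lower genes. HMOX1 and GPX3 lie farthest above the line and RRM2 farthest below it.

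HMOX1, the haem oxygenase that opens the haem ring, stood at 1949 FPKM with both drugs, 1375 with As2O3, 47.2 with GSK458 and 30.3 in the control. It was thus high in both libraries that held arsenic, and its difference of 5.96 was the largest of all genes. GPX3, a secreted selenium-dependent glutathione peroxidase, stood at 144 FPKM with both drugs, 4.55 with As2O3, 155 with GSK458 and 2.12 in the control, a difference of 5.53. GPX3 was high in both libraries that held GSK458. RIMKLB, a ligase that joins glutamate to other acids, stood at 224 FPKM with both drugs, 36.5 with As2O3, 89.1 with GSK458 and 18.2 in the control, a difference of 3.55. For RIMKLB each single-drug library lay between the control and the combination. SLC7A11, the cystine transporter, was at 17.6 FPKM with both drugs, 11.2 with As2O3, 0.45 with GSK458 and 0.81 in the control.

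TFPI2, an inhibitor of serine proteases, was at 301 FPKM with both drugs, 664 with As2O3, 109 with GSK458 and 32.0 in the control. GDF15, a secreted stress cytokine, followed the same order with 652, 836, 300.5 and 99.9 FPKM. So did DUSP5, a nuclear ERK phosphatase, with 83.6, 174, 31.5 and 10.8 FPKM. These 3 genes were highest with As2O3 alone. SERPINE2, another protease inhibitor, was at 119 FPKM with both drugs, 40.2 with As2O3, 70.6 with GSK458 and 17.4 in the control. The folate enzyme ALDH1L1 was at 11.3, 2.94, 1.91 and 0.88 FPKM in the same order of libraries, and both genes were highest in the combination.

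A further set of top genes had nearly the same level with both drugs and with GSK458. SHISA2, an inhibitor of WNT and FGF receptor maturation, was at 14.0 FPKM with both drugs, 1.14 with As2O3, 12.7 with GSK458 and 0.54 in the control. CYP27A1, a mitochondrial sterol hydroxylase, was at 30.5, 4.10, 29.3 and 4.26 FPKM in that order. The hedgehog ligand SHH was at 11.2, 3.97, 10.3 and 0.99 FPKM. Reads for YPEL3, a growth-suppressing protein, gave 50.8 FPKM with both drugs, 15.2 with As2O3, 46.2 with GSK458 and 9.26 in the control. FAM134B, an autophagy receptor of the endoplasmic reticulum, was at 6.16, 0.90, 5.19 and 0.36 FPKM. C10orf54, whose RefSeq symbol is VSIR and which encodes an immune checkpoint protein, was at 5.83, 1.47, 5.01 and 0.60 FPKM. RBFOX3, a splicing factor best known from neurons, was at 7.96 FPKM with both drugs and 0.72 in the control.

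Adhesion and membrane genes also stood among the highest. CD44, the hyaluronan receptor, was at 100 FPKM with both drugs, 62.1 with As2O3, 76.7 with GSK458 and 21.7 in the control. NT5E, the ectonucleotidase that makes adenosine, was at 15.8, 4.85, 10.1 and 2.49 FPKM. ARRDC3, an arrestin-like adaptor, was at 101, 53.5, 54.3 and 19.1 FPKM. NEAT1, the long RNA that scaffolds paraspeckles, was at 130 FPKM with both drugs, 20.05 with As2O3, 87.3 with GSK458 and 28.6 in the control. NEAT1 was lowest with As2O3 alone. GBP2, an interferon-inducible GTPase, was at 5.35 FPKM with both drugs and 0.15 in the control. UBALD2, SPON2 and LOC100505817 had differences of 2.51, 2.16 and 3.20.

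Several top entries are uncertain. SNHG25, which hosts a small nucleolar RNA, was at 44.6 FPKM with both drugs and listed at 0 in the control, so no fold is given. H3F3A, which has near-identical copies, was at 12.5 FPKM with both drugs, 0.01 with As2O3, 9.47 with GSK458 and 0.01 in the control. RMRP, the RNA of a mitochondrial RNA-processing enzyme, has no poly(A) tail. It was at 22.5 FPKM with both drugs and 1.93 in the control. BRE-AS1 is antisense to another gene, and whether the counting used strand is unknown.

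**Figure D2:**
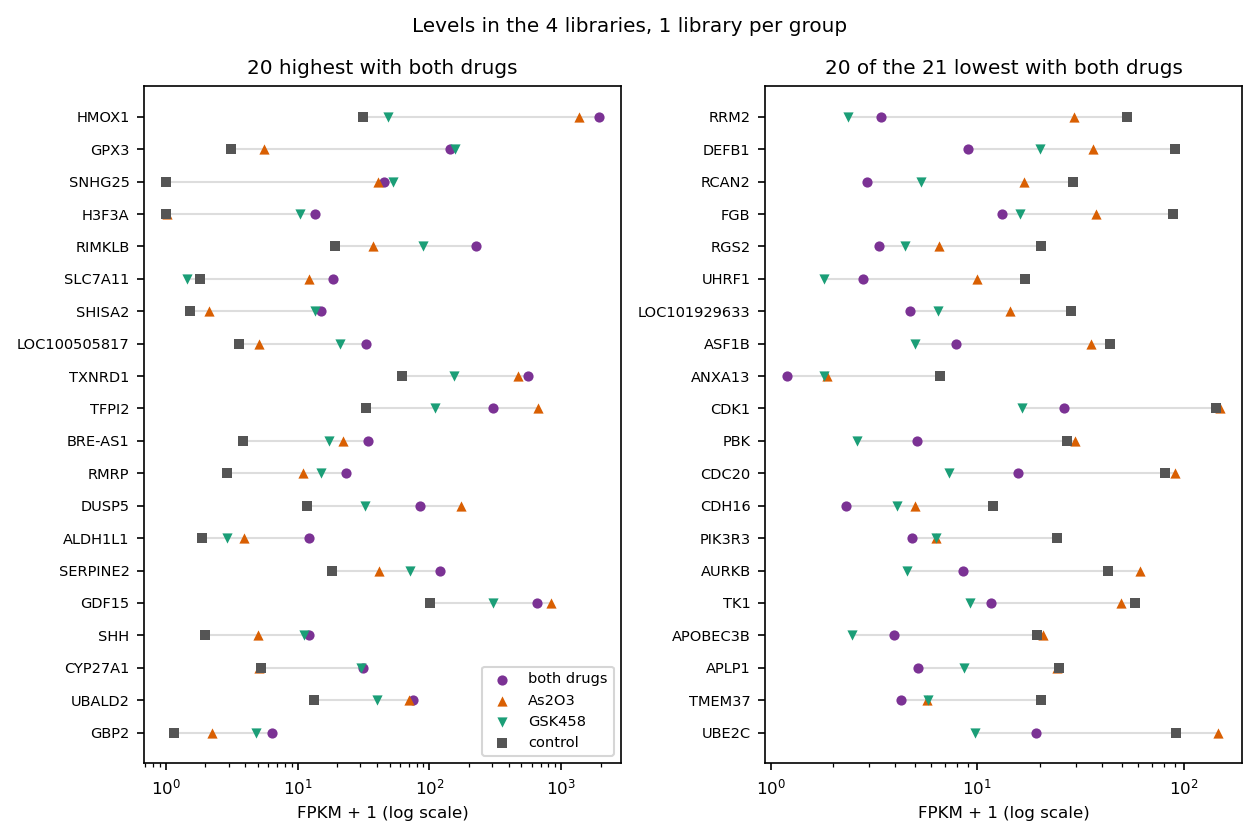
Levels in the 4 libraries, as FPKM + 1 on a log axis, of the 20 genes highest (left) and 20 of the 21 lowest (right) with both drugs against the control. Each gene has 1 point per library, namely both drugs, As2O3, GSK458 and control. Combination levels of HMOX1, SLC7A11 and TXNRD1 lie near those with As2O3, while those of GPX3 and CYP27A1 lie near those with GSK458. Combination levels of the mitotic genes lie above those with GSK458 and far below the control.

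NRF2 targets were higher as a list. Of 44 listed genes 42 were compared, and 18 were at least 2-fold higher and none 2-fold lower, against 3.1% of all genes called higher. Their median difference was 0.85, and their medians in the single-drug libraries against the same control were 1.06 for As2O3 and −0.07 for GSK458. These comparisons share the control library. The arms of the response differed in size. In the thioredoxin arm, TXNRD1, the reductase that recharges thioredoxin, stood at 563 FPKM with both drugs, 470 with As2O3, 154 with GSK458 and 60.6 in the control. SRXN1, which restores oxidised peroxiredoxins, was at 43.0, 61.8, 16.1 and 14.0 FPKM. TXN and PRDX1 differed from the control by only 0.30 and 0.16.

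For glutathione, both subunits of the rate-limiting ligase were higher with both drugs. GCLM was at 33.4 FPKM with both drugs, 41.4 with As2O3, 9.61 with GSK458 and 8.56 in the control, and GCLC was at 23.7, 21.3, 8.68 and 7.77 FPKM. GSR, which regenerates reduced glutathione, was nearly level at 39.8 and 37.6 FPKM with both drugs and in the control. CHAC1, which degrades glutathione, was at 4.25 FPKM with both drugs, 23.9 with As2O3, 2.73 with GSK458 and 4.18 in the control. The efflux pump ABCC3 was at 68.5, 38.9, 45.5 and 20.2 FPKM and was highest in the combination. Among genes that supply NADPH and carbon, the transketolase TKT was at 2086 FPKM with both drugs, 1880 with As2O3, 1017 with GSK458 and 747 in the control. IDH1, a cytosolic isocitrate dehydrogenase, was the lowest target, at 43.0 and 77.8 FPKM.

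NQO1, a quinone reductase, was at 2089 FPKM with both drugs, 1807 with As2O3, 801 with GSK458 and 727 in the control. The aldo-keto reductases AKR1C1 to AKR1C3 share much sequence and are uncertain. Iron storage genes were among the most abundant messages of the cell. FTH1, the ferritin heavy chain, was at 16546 FPKM with both drugs, 15008 with As2O3, 8171 with GSK458 and 4300 in the control. FTL, the light chain, was at 3704, 6426, 1892 and 1998 FPKM. FTH1 was above the control in each drug library and FTL in those with arsenic, and both genes have many processed pseudogenes that make their values uncertain.

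Among regulators of the response, the small MAF genes were the ones at least 2-fold higher. MAFF was at 29.9 FPKM with both drugs, 40.4 with As2O3, 27.1 with GSK458 and 7.19 in the control. MAFK was at 11.8 and 3.97 FPKM with both drugs and in the control, and MAFG at 15.6 and 6.67. NFE2L2, which encodes NRF2, was at 74.8 FPKM with both drugs, 56.3 with As2O3, 73.0 with GSK458 and 43.2 in the control. KEAP1, its adaptor for degradation, was at 28.3 and 24.02 FPKM with both drugs and in the control. BACH1, the repressor that competes with NRF2, was at 8.97 and 4.42.

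The promoter of TXNRD1 is printed as the example of an antioxidant gene, from RefSeq on GRCh38.p14 at chr12:104215529-104215828 on the + strand. It runs from 250 bases before to 50 bases after the start. RefSeq gives a newer build than the hg19 of the deposited values. Capitals mark the letters TGACNNNGC or TGAGNNNGC on either strand, the core of the antioxidant response element that NRF2 binds.
TXNRD1: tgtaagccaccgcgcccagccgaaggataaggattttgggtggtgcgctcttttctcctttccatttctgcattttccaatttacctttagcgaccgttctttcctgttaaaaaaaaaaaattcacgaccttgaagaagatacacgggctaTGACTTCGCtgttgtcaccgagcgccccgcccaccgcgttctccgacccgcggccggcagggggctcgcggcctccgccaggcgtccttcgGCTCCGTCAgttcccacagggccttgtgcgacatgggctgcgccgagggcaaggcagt
The TXNRD1 window holds 2 such matches. The same letters occur in 33.2% of all 9810 promoters of compared genes that had a sequence, so the core is common. Only 33 of the 42 NRF2 targets had a promoter, and 14 of these (42.4%) held the letters. A share over so few promoters is only a description.

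Among the gene lists, that of cell division held the most genes at least 2-fold lower. Most called genes were in no list, namely 337 of the 514 lower and 316 of the 378 higher ones. Of 73 mitotic genes, all compared, 66 were at least 2-fold lower with both drugs than in the control, against 4.21% of all genes, and none was 2-fold higher. Their median difference was −1.63, while the medians against the same control were 0.27 for As2O3 and −2.30 for GSK458. All 23 spindle and condensin genes were at least 2-fold lower, as were 17 of 18 kinetochore genes and 14 of 15 kinases and cyclins. Not all 73 genes act in mitosis itself. The list also holds 8 factors and markers of the wider cell cycle, such as E2F1 and E2F2, and 7 of them were at least 2-fold lower. Summed over the 73 genes, the level was 685 FPKM with both drugs and 2184.5 in the control.

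CDK1, the kinase that drives entry into mitosis, stood at 25.3 FPKM with both drugs, 149 with As2O3, 15.4 with GSK458 and 142 in the control. Its partner CCNA2 was at 5.20, 35.9, 2.62 and 27.5 FPKM in that order. CDC20, which activates the anaphase-promoting complex, was at 14.8, 89.2, 6.29 and 80.1 FPKM. For these 3 genes the combination lay far below the control yet above GSK458 alone, and As2O3 alone lay above the control. AURKB, the kinase of the chromosomal passenger complex, was at 7.57, 60.3, 3.56 and 41.9 FPKM, and its partner BIRC5 at 5.50, 30.1, 1.81 and 29.2. The proliferation marker MKI67 was at 7.21 FPKM with both drugs, 33.6 with As2O3, 2.08 with GSK458 and 31.7 in the control. WEE1, which restrains CDK1, was the only mitotic gene that was higher, at 14.1 and 11.1 FPKM with both drugs and in the control. FZR1 and CDC25B, at −0.20 and −0.44, were the least lower.

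DNA replication genes were lower to a smaller extent. All 40 listed genes were compared, and 29 were at least 2-fold lower, against 4.21% of all genes. By any amount 39 were lower, against 51.2% of all genes, with a median of −1.38. Medians against the same control were −0.13 for As2O3 and −1.46 for GSK458. PCNA, the sliding clamp, was at 25.3 FPKM with both drugs, 65.3 with As2O3, 25.6 with GSK458 and 101 in the control. CDC6, which loads the helicase, was at 2.32, 14.8, 0.93 and 12.5 FPKM, and FEN1, the flap nuclease, at 4.73, 17.8, 4.90 and 22.4. The helicase subunits MCM2 to MCM7 had differences of −0.75 to −1.81, with MCM5 the least and MCM7 the most lower. CDT1, another loader of the helicase, was the exception, at 18.3 FPKM with both drugs and 16.0 in the control.

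Supply of deoxyribonucleotides showed the largest single difference downward. RRM2, the regulated subunit of ribonucleotide reductase, was at 2.41 FPKM with both drugs, 28.2 with As2O3, 1.36 with GSK458 and 52.1 in the control, a difference of −3.96. Thymidine kinase TK1 was at 10.6, 48.7, 8.21 and 57.0 FPKM, and thymidylate synthase TYMS at 15.4, 49.9, 8.95 and 54.2. RRM2B, the subunit used outside S phase, was at 8.37 and 6.93 FPKM with both drugs and in the control. Of 13 genes of purine and pyrimidine synthesis none was 2-fold apart, and their median was −0.36.

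Of 7 genes of histone chaperones and chromatin assembly 5 were at least 2-fold lower, against 4.21% of all genes. HELLS, a chromatin remodelling enzyme, and FAM111A, a protease, are among the 7. Of 8 genes of DNA methylation and its removal, with the histone methyltransferase EZH2 among them, 2 were at least 2-fold lower. The 3 that were higher by any amount were DNMT3A, TET2 and TET3. UHRF1, which brings the methyltransferase DNMT1 to replicated DNA, was at 1.80 FPKM with both drugs, 8.94 with As2O3, 0.81 with GSK458 and 15.9 in the control. DNMT1 itself was at 8.73, 23.7, 7.77 and 28.8 FPKM. The histone chaperone ASF1B was at 6.90, 34.7, 3.98 and 43.0 FPKM, whereas its paralog ASF1A was at 13.4 and 12.6 with both drugs and in the control. DNMT3A and DNMT3B, which set methylation anew, had differences of 0.27 and −0.07. Of 22 compared genes of homologous recombination and the Fanconi anaemia pathway, 12 were at least 2-fold lower, against 4.21% of all genes. Their median was −1.12. EXO1, a nuclease, was at 0.89 and 6.98 FPKM with both drugs and in the control, and UBE2T, the ubiquitin-conjugating enzyme of the Fanconi pathway, at 8.19 and 33.2.

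Genes of cycle entry stood closer to the control as a list, with a median of −0.04. Of 19 compared genes of G1 control 2 were at least 2-fold lower, against 4.21% of all genes. Of the 8 cyclins and kinases 6 were lower by any amount, with a median of −0.57. Among them CCNE1 and CDK2 had differences of −0.90 and −0.96. Of 11 inhibitors, pocket proteins and the E2F factors E2F3 to E2F5, 7 were higher and 4 lower, with a median of 0.14. Cyclin E2 (CCNE2) was at 0.30 and 1.82 FPKM with both drugs and in the control, and the inhibitor CDKN2C differed by −1.63. Cyclin D1 (CCND1) was at 34.4 FPKM with both drugs, 33.0 with As2O3, 33.7 with GSK458 and 25.3 in the control. CDKN1A, the p21 inhibitor, was at 105, 244, 90.4 and 79.7 FPKM. CDKN1B, the p27 inhibitor and a FOXO target, was at 31.3 FPKM with both drugs and 26.6 in the control. MYC was at 57.0, 96.2, 88.4 and 45.2 FPKM in the 4 libraries in the same order.

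Promoters of 4 of the lowest cell-cycle genes are printed because lower genes shared letters in this window. They come from RefSeq on GRCh38.p14 and cover 250 bases before to 50 bases after the start. CDC20 lies at chr1:43358731-43359030 on the + strand and CDK1 at chr10:60778081-60778380 on the + strand. ASF1B lies at chr19:14136540-14136839 on the − strand and RRM2 at chr2:10122489-10122788 on the + strand. Capitals mark matches on either strand. They mark TTTGAA, the core of the CHR element of late cell-cycle promoters. They also mark the CCAAT box and the E2F cores (TTTGGCGC, TTTCGCGC or TTCCCGCC).
CDC20: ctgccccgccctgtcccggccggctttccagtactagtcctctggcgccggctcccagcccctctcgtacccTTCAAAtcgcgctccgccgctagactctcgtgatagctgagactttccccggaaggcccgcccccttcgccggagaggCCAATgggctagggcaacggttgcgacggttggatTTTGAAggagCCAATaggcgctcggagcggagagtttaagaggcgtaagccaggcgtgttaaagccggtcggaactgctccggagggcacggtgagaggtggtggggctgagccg
CDK1: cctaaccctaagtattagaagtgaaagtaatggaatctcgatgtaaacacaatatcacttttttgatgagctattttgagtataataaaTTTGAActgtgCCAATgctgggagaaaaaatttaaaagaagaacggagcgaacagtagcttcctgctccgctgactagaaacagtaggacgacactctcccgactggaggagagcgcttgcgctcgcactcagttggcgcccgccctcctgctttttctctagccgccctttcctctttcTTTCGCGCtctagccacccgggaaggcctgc
ASF1B: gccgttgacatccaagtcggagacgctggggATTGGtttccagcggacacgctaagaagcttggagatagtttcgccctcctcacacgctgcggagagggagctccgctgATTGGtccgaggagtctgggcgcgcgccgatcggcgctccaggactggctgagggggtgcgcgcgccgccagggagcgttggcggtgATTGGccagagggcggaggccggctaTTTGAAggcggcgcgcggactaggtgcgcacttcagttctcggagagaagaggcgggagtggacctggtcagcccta
RRM2: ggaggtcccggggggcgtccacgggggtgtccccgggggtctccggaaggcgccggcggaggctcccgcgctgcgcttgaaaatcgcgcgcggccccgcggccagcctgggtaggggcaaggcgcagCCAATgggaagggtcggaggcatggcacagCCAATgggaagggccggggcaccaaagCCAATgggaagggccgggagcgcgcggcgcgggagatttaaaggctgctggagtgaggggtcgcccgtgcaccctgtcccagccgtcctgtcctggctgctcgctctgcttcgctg
Matches were counted in all compared genes with a promoter. CHR letters occurred in 23.9% of the 418 promoters of genes at least 2-fold lower, and in 9.17% of all 9810. Among 62 mitotic genes with a promoter the share was 61.3%, and among 34 replication genes 2.94%. For CCAAT the shares were 57.2% in lower genes, 66.1% in mitotic genes, 55.9% in replication genes and 37.3% in all. E2F cores were found in 16.0% of lower genes, 19.4% of mitotic genes, 55.9% of replication genes and 7.21% of all. Of these sets the mitotic one held CHR letters most often and the replication one E2F cores. The antioxidant core occurred in 34.0% of lower genes and 33.2% of all. A match is a description of these letters and does not show that a factor binds there. Of the 378 higher genes only 267 had a promoter. Among those, 10.5% held CHR letters, 33.7% CCAAT, 3.75% E2F cores and 33.3% the antioxidant core.

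**Figure D3:**
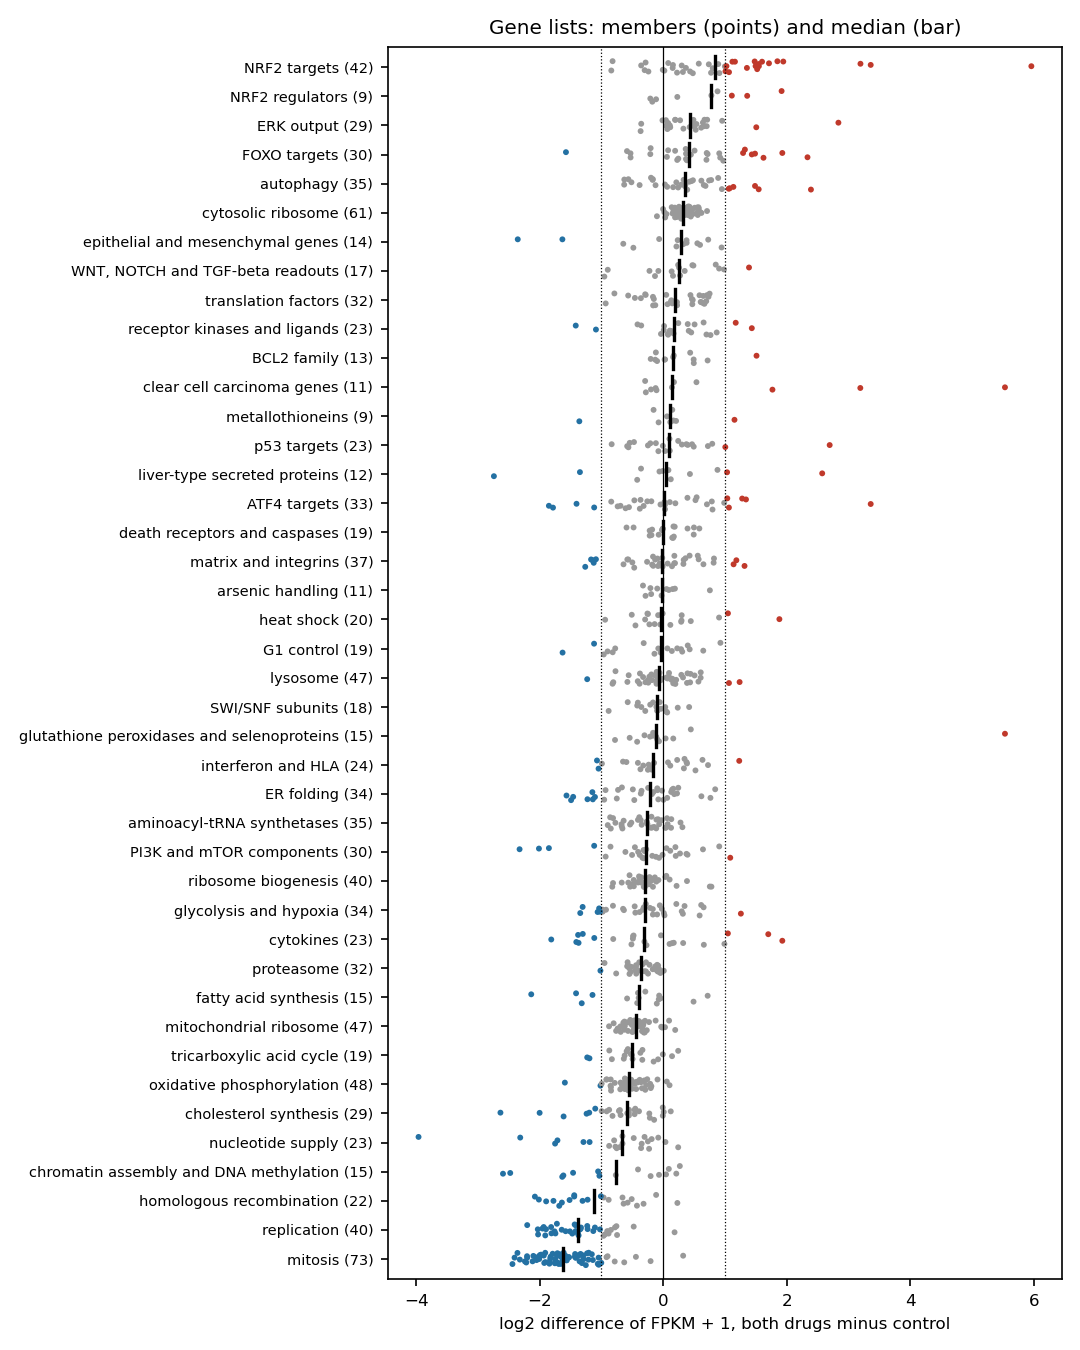
Difference of log2(FPKM + 1), both drugs minus control, for the members (points) of each gene list with at least 5 compared members, with the number compared in parentheses and the median as a bar. Red and blue points are at least 2-fold higher or lower, and dotted lines mark 2-fold. NRF2 targets stand at the top with a median of 0.85, and mitosis stands at the bottom with −1.63.

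Targets of FOXO factors were mostly higher. Of 30 compared FOXO targets 7 were higher and 1 lower by 2-fold or more, against 3.1% and 4.21% of all genes. By any amount 24 were higher, against 48.8% of all genes, with a median of 0.42. Medians against the same control were 0.29 for As2O3 and 0.45 for GSK458. All 8 receptors and adaptors among them were higher. IRS2, the adaptor of the insulin receptor, was at 17.4 FPKM with both drugs, 10.1 with As2O3, 14.5 with GSK458 and 4.98 in the control. IGF1R, the receptor for insulin-like growth factor, was at 8.21, 2.11, 7.28 and 2.41 FPKM. PIK3IP1, an inhibitor of PI3K, was at 13.5, 8.08, 15.3 and 4.93 FPKM, and FBXO32, a ubiquitin ligase of muscle wasting, at 4.23, 3.34, 3.18 and 1.09. SOD2, the mitochondrial superoxide dismutase, was at 617, 575, 357 and 161 FPKM and also answers to NF-kB. TSC22D3, a glucocorticoid-induced gene, was lower, at 16.4, 37.1, 22.8 and 51.0 FPKM. TXNIP, an inhibitor of thioredoxin and glucose uptake, was at 237, 388, 347 and 184.

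Of 30 compared components of the PI3K and mTOR pathway 1 was at least 2-fold higher and 4 lower. Over all genes the shares were 3.1% and 4.21%. The regulatory subunit PIK3R3 was at 3.83 FPKM with both drugs, 5.28 with As2O3, 5.33 with GSK458 and 23.2 in the control. SGK1, a kinase related to AKT, was at 4.33, 5.86, 3.66 and 20.5 FPKM. Both were low in every drug library. DDIT4, a stress-induced inhibitor of mTOR, was at 306, 1152, 289 and 1105 FPKM and was low only where GSK458 was present. SESN2, another brake on mTOR, was at 15.0, 29.8, 13.1 and 33.8 FPKM. PIK3CD, a catalytic subunit, was at 15.9 FPKM with both drugs and 6.98 in the control. AKT1 and MTOR had differences of −0.01 and −0.32.

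Receptors upstream gave mixed values. Of 23 compared receptor kinases and ligands, IGF1R and AXL were at least 2-fold higher, and FGFR2 and FGFR4 at least 2-fold lower. Over all genes 3.1% were that much higher and 4.21% that much lower. AXL was at 34.8 FPKM with both drugs, 34.0 with As2O3, 29.6 with GSK458 and 14.9 in the control. FGFR4 was at 8.31, 17.7, 8.28 and 23.9 FPKM, and FGFR2 at 21.4, 19.7, 30.2 and 46.8. ERBB3, MET and INSR had differences of 0.51, 0.87 and 0.70. Output genes of the ERK pathway were higher in 26 of 29 compared members, against 48.8% of all genes, but only DUSP5 and SPRY4 reached 2-fold. These were 10 of 11 feedback phosphatases and brakes and 16 of 18 factors and ligands. SPRY4, an inhibitor of receptor signalling, was at 26.4, 16.7, 16.6 and 8.66 FPKM. The immediate transcription factors of that list were close to the control, with FOS at 2.78 FPKM with both drugs, 14.5 with As2O3, 1.18 with GSK458 and 2.13 in the control.

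Stress targets of ATF4 split by their role. Of 33 compared genes 5 were higher and 4 lower by 2-fold or more, against 3.1% and 4.21% of all genes. The median was 0.02, or −0.03 with libraries rescaled to equal sums. All 7 transcription factors were higher, with a median of 0.80, and 10 of 12 enzymes were lower, with a median of −0.46. ATF4 itself was at 443 FPKM with both drugs, 534 with As2O3, 485 with GSK458 and 254 in the control. CEBPB was at 20.4, 29.4, 7.77 and 7.47 FPKM, and ATF3 at 4.70, 17.1, 2.97 and 1.35. DDIT3, which encodes the factor CHOP, was at 13.7, 72.7, 11.1 and 9.26 FPKM.

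The enzymes of serine and asparagine synthesis lay at the GSK458 level. PHGDH, the entry enzyme of serine synthesis, was at 6.47 FPKM with both drugs, 69.4 with As2O3, 5.87 with GSK458 and 24.7 in the control. PSAT1, the next enzyme, was at 20.01, 80.9, 23.3 and 54.6 FPKM, and ASNS, which makes asparagine, at 10.2, 67.8, 8.41 and 16.1. MTHFD2, of mitochondrial folate metabolism, was at 23.1, 120, 20.3 and 34.4. These genes were higher with As2O3 alone and lower with both drugs than in the control. SLC7A11, the cystine transporter that is a target of NRF2 as well, did not follow them.

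The p53 target list had 2 of 23 members at least 2-fold higher, GDF15 and GADD45A, against 3.1% of all genes. Its median was 0.10. GADD45A was at 10.6 FPKM with both drugs, 32.0 with As2O3, 12.0 with GSK458 and 4.78 in the control. MDM2, the ligase that degrades p53, was at 23.9 and 13.4 FPKM with both drugs and in the control, and BAX, a pore-forming death protein, at 128 and 125. In the BCL2 family BMF alone of 13 compared genes was at least 2-fold apart, against 7.31% of all genes. BMF, a BH3-only killer, was at 22.5 FPKM with both drugs, 9.69 with As2O3, 22.8 with GSK458 and 7.24 in the control. BCL2L11, which encodes BIM, was at 32.8, 35.8, 22.8 and 19.5 FPKM, and PMAIP1, which encodes NOXA, at 2.32, 14.6, 0.95 and 1.95. The protectors MCL1 and BCL2L1 had differences of −0.13 and 0.49. None of 19 death receptors, caspases and their inhibitors was 2-fold apart.

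All 8 compared chemokines were lower, against 51.2% of all genes, and 6 reached 2-fold, against 4.21%. Their median was −1.34. Of the 15 other cytokine and NF-kB genes 9 were higher and 6 lower, with a median of 0.14, where 48.8% of all genes were higher. CXCL1, a neutrophil attractant, was at 9.96 FPKM with both drugs, 46.9 with As2O3, 20.6 with GSK458 and 37.5 in the control. CXCL5 was at 14.1, 91.6, 23.0 and 37.99 FPKM, and CXCL2 at 7.28, 28.2, 13.1 and 20.97. CCL2, a monocyte attractant, was at 1.38, 0.82, 5.82 and 4.88. For CXCL1, CXCL2 and CXCL5 the combination was the lowest and As2O3 alone the highest of the 4 libraries. By contrast IL18 was at 346 FPKM with both drugs, 176 with As2O3, 438 with GSK458 and 106 in the control. RELB, an NF-kB subunit, was at 24.9 and 11.5 FPKM with both drugs and in the control, and IL6 at 36.4 and 32.9. The whole list of 23 had a median of −0.30, or 0.10 where only genes averaging at least 5 FPKM were kept.

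Of 24 compared interferon and HLA genes 1 was higher and 2 lower by 2-fold or more, close to the 3.1% and 4.21% of all genes. IRF7, an interferon regulatory factor, was the higher one, at 6.59 FPKM with both drugs and 2.23 in the control. BST2, an antiviral membrane protein, was at 40.1 and 85.4 FPKM, and OAS3, a sensor of viral RNA, at 1.35 and 3.86.

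Lipid synthesis genes were lower. Of 29 compared genes of cholesterol synthesis, uptake and control, 6 were at least 2-fold lower, against 4.21% of all genes, and none higher. By any amount 27 were lower, against 51.2% of all genes, with a median of −0.58. INSIG1, a sterol sensor, was at 3.81 FPKM with both drugs, 25.6 with As2O3, 3.38 with GSK458 and 8.09 in the control. ACAT2, an enzyme that makes acetoacetyl-CoA, was at 11.3, 36.0, 9.80 and 36.6 FPKM. CYP51A1, a demethylase of cholesterol synthesis, was level at 41.6 and 41.8 FPKM with both drugs and in the control. The fatty acid desaturase SCD was at 36.2, 195, 37.7 and 163 FPKM, and FADS2, another desaturase, at 70.9, 132, 64.9 and 190. SREBF1, the factor that drives these genes, was at 9.13, 15.6, 8.47 and 24.3. FASN, the fatty acid synthase, differed by −0.07.

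Genes of energy metabolism were mostly lower, the greater part of them by less than 2-fold. Of 48 nuclear genes of oxidative phosphorylation 46 were lower, against 51.2% of all genes, but only ATP5G1 and NDUFS7 reached 2-fold, with a median of −0.55. ATP5G1, a subunit of the ATP synthase rotor, was at 47.9 FPKM with both drugs, 96.3 with As2O3, 51.3 with GSK458 and 147 in the control. In the tricarboxylic acid cycle 17 of 19 genes were lower, and 2 reached 2-fold. These were IDH2, at 62.3, 162, 61.4 and 148 FPKM, and FH, the fumarase, differing by −1.19. Mitochondrial ribosomal proteins were lower in 44 of 47 genes, none 2-fold, with a median of −0.45. Glycolytic genes were lower in 17 of 21, and 4 reached 2-fold, against 4.21% of all genes. Among these PGAM1 was at 199, 327, 162 and 506 FPKM and TPI1 at 479, 984, 412 and 1184. NDRG1, a stress and hypoxia gene, was higher, at 86.9, 137, 53.1 and 35.8. VEGFA, the vascular growth factor, was at 43.1, 57.6, 38.3 and 27.1.

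Protein synthesis genes divided into a higher and a lower group. Cytosolic ribosomal proteins were higher in 59 of 61 genes, against 48.8% of all genes, none 2-fold, with a median of 0.32. Medians against the same control were 0.08 for As2O3 and 0.53 for GSK458. RPL14 was the highest, at 1194 FPKM with both drugs, 833 with As2O3, 1292 with GSK458 and 730 in the control. RPL35 was the lowest, at 1902, 1903, 2264 and 2041. Processed pseudogenes make many of these values uncertain. Ribosome biogenesis genes were lower in 33 of 40, against 51.2% of all genes, none 2-fold, with a median of −0.29. Proteasome genes were lower in 31 of 32, with a median of −0.36, and only PSMA6 reached 2-fold. Aminoacyl-tRNA synthetases were lower in 27 of 35, none 2-fold.

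Of 15 chaperones of the endoplasmic reticulum 7 were at least 2-fold lower, against 4.21% of all genes, with a median of −0.96. CALR, a lectin chaperone, was at 294 FPKM with both drugs, 480 with As2O3, 269 with GSK458 and 872 in the control. PDIA4, a disulfide isomerase, was at 85.1, 171, 96.3 and 235.5 FPKM, and HSPA5, the main chaperone of that compartment, at 158, 313, 158 and 342. The sensor ERN1 and the factor XBP1 were not lower, with differences of 0.84 and 0.18. Of 20 compared heat shock genes 12 were lower and 8 higher by any amount, and the 2 that reached 2-fold were higher. Most encode cytosolic chaperones and their helpers, but the list also holds the mitochondrial chaperones HSPD1 and HSPE1 and the factors HSF1 and HSF2. Over all genes 3.1% were at least 2-fold higher. CRYAB, a small heat shock protein, was at 94.2 FPKM with both drugs, 79.6 with As2O3, 46.6 with GSK458 and 24.9 in the control. HSPH1 was at 6.69 and 2.72 FPKM with both drugs and in the control. HSPA1B and HSP90AA1 had differences of 0.30 and −0.01, and HSPE1 and HSPA4 of −0.94 and −0.51.

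Autophagy genes were higher in 26 of 35 compared members, against 48.8% of all genes. By 2-fold or more 6 were higher, against 3.1% of all genes, and none lower. Their median was 0.36. SQSTM1, the receptor that also binds KEAP1, was at 280 FPKM with both drugs, 194 with As2O3, 161 with GSK458 and 95.2 in the control. GABARAPL1, an autophagosome protein, was at 334, 248, 298 and 118 FPKM, and the initiating kinase ULK1 at 24.8, 18.9, 17.0 and 11.2. These 3 genes were highest in the combination. Lysosomal genes gave no common direction, with 21 of 47 higher and 26 lower. NPC1, a cholesterol exporter, was at 28.5 FPKM with both drugs and 11.5 in the control, and the protease CTSL at 178 and 84.6. NAGLU, a hydrolase, was at 9.51 and 23.7.

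Metal handling beyond ferritin gave divided values. MT2A, the most abundant metallothionein, was at 473 FPKM with both drugs, 816 with As2O3, 220 with GSK458 and 212 in the control. MT1X, a close relative, was at 14.1, 52.4, 13.7 and 37.7 FPKM. Metallothioneins share sequence and are uncertain. None of 11 compared genes of arsenic uptake, methylation and export was 2-fold apart. AS3MT, the arsenic methyltransferase, was at 7.17 and 6.88 FPKM with both drugs and in the control. PML, the protein that arsenic sends to degradation in leukaemia, was at 18.9, 19.2, 16.5 and 10.8 FPKM in the 4 libraries.

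Of 12 compared genes of liver-type secreted proteins and their factors 6 were higher and 6 lower, 2 each way by 2-fold or more, against 3.1% and 4.21% of all genes. RBP4, the retinol carrier, was at 4.95 FPKM with both drugs and listed at 0 in the control, and the factor ONECUT2 was at 6.34 and 2.58 FPKM. FGB, the fibrinogen beta chain, was at 12.2 FPKM with both drugs, 36.6 with As2O3, 15.1 with GSK458 and 87.1 in the control, and FGA, the alpha chain, was at 7.83, 9.71, 7.38 and 21.5. DEFB1, an antimicrobial peptide of epithelia, was at 8.02, 35.2, 19.0 and 89.2 FPKM. CDH16, a cadherin of kidney epithelium, was at 1.33, 4.01, 3.08 and 10.9. RCAN2, a calcineurin inhibitor, was at 1.93, 15.9, 4.34 and 28.1, and RGS2, which shortens G protein signals, at 2.34, 5.53, 3.46 and 19.3. For FGB, DEFB1, CDH16, RCAN2 and RGS2 the combination was the lowest of the 4 libraries and both single drugs lay below the control. SPP1, which encodes osteopontin, stood at the other end, at 1947, 1308, 761 and 571 FPKM.

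Of 37 compared matrix and integrin genes 3 were higher and 5 lower by 2-fold or more, against 3.1% and 4.21% of all genes. The matrix genes SPARC, COL4A1 and COL4A2 were lower, at 103, 54.4 and 69.1 FPKM with both drugs and at 321, 123 and 154 FPKM in the control. COL7A1, COL6A1 and the integrin ITGA3 were higher, at 6.66, 10.4 and 102 FPKM with both drugs and at 2.08, 4.18 and 44.2 in the control. VIM, the mesenchymal intermediate filament, was at 2761, 1890, 2818 and 1434 FPKM. CTGF, a readout of TGF-beta and YAP, was at 13.9, 8.19, 17.3 and 4.70. Its relative CYR61 was lower, at 22.8 and 45.0 FPKM with both drugs and in the control. None of 18 SWI/SNF chromatin remodelling subunits was 2-fold apart, and ARID1A was at 8.59 and 9.21 FPKM.

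Measured by gain and loss in FPKM, abundant messages differed most. FTH1 held 2.92% of the FPKM sum with both drugs and 0.79% in the control. EEF1A1, the elongation factor, was at 8024 FPKM with both drugs, 5785 with As2O3, 8827 with GSK458 and 5216 in the control. The largest losses were of actin and its partners. TMSB4X, which binds free actin, was at 2867, 6267, 3883 and 6320 FPKM, and ACTB, the cytoplasmic actin, at 2400, 3871, 2430 and 4486. PTMA, a nuclear acidic protein, was at 883, 1565, 1208 and 2241 FPKM, LGALS1, a galectin, at 958, 2101, 987 and 1987, and FXYD2, a sodium pump subunit of kidney, at 635, 589, 698 and 1367. FXYD2 was low in every drug library and LGALS1 only in those with GSK458. Several of these genes have processed pseudogenes, so their values are uncertain.

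**Figure D4:**
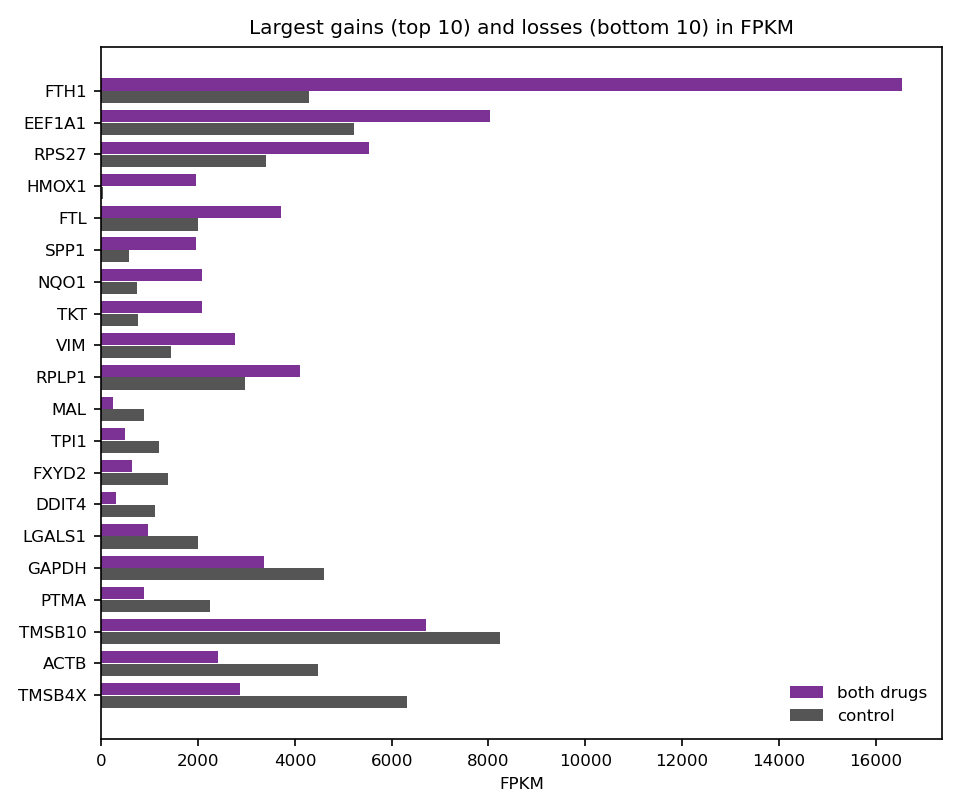
FPKM with both drugs (upper bar of each pair) and in the control (lower bar) for the 10 genes with the largest gain (upper 10) and the 10 with the largest loss (lower 10). FTH1 has the largest gain, and TMSB4X, at 2867 FPKM with both drugs against 6320 in the control, has the largest loss.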

How the data were processed

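Poly(A) RNA libraries were made with a stranded mRNA kit after column purification, per the labels' protocols. The deposited FPKM values were made by the authors, and the submitters' processing notes name the build hg19 and, in no stated order, Cuffdiff 2.2.1, TopHat2 2.1.1, SAMtools 0.1.18 and Bowtie2 2.2.8. The sources used here do not give the annotation, the strand setting or the handling of multiply mapped reads, so genes with paralogs, pseudogenes, overlaps or antisense partners are uncertain, not all of them marked. Groups, doses and times came from the labels, and each group had 1 library.

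The reported values were not rescaled. Genes averaging at least 1 FPKM across all 4 libraries were compared as log2(FPKM + 1), with 2-fold as the threshold and no test. Relative depth came from the commonest ratio of low values, those below 0.5 FPKM, between a library and the control. An exact 0 can be a failed estimate. The text draws its named genes from a rule covering, among genes with at least 5 FPKM in 1 of the 2 libraries, the 30 highest, the 30 lowest, the 10 largest gains and losses, the 10 most abundant, genes listed at 0, up to 4 members of each list each way (2 where none was 2-fold), 3 markers and 12 fixed genes. Other list members are given after their values were seen, as examples of a role or to show a range. The members and the 46 gene lists were chosen with earlier results of these data known. A gene may stand in more than 1 list. PDK1 was moved out of the PI3K list after the data were seen, since the symbol is that of pyruvate dehydrogenase kinase. Promoters were matched by symbol or synonym to RefSeq (9810 of 12202 genes). At least 80% of each set with a printed share had one, except the higher genes and the NRF2 targets. Calculations used Python 3.11.15, NumPy 2.4.6, pandas 2.3.3 and matplotlib 3.10.9 and were tested on simulated data. Alternatives were other pseudocounts, filters, scalings and a 1.5-fold threshold. Some genes within the rule for named genes are not reported here.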

Additional observations from a re-analysis of the deposited data

How the results depend on the processing

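The 2-fold call gave 378 genes upward and 514 downward. With a pseudocount of 0.1 FPKM the counts were 601 and 673, with 5 FPKM they were 148 and 244, and at 1.5-fold they were 1195 and 1415. No filter gave 402 and 542, a mean of at least 5 FPKM 262 and 383, a rescaled sum of 1000000 457 and 697, median-of-ratios scaling 377 and 517, upper-quartile scaling 428 and 476, and keeping small RNA symbols 399 and 528. Of the named genes none changed direction, over all 194 or, with a mean of at least 5 FPKM, the 174 that passed it, and with a pseudocount of 5 FPKM 33 were no longer 2-fold apart. The median of clear cell carcinoma genes was −0.014 without a filter, and with a mean of at least 5 FPKM the medians of cytokines and of interferon and HLA genes were 0.10 and 0.077. The cause was not tested. No paired analysis was possible because each group had 1 library. Without replicates or read counts, the precision of each difference is unknown.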

Other observations

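Groups of genes that share a RefSeq gene type or a symbol stem, chosen after the data were seen, gave further values. Transcribed pseudogenes and long noncoding RNAs are RefSeq types, and the other groups go by stem. Transcribed pseudogenes were called more often upward, with 17 of 174 at least 2-fold higher and none lower, against 3.1% and 4.21% of all genes. Reads of such genes can come from their parent genes, so these values are uncertain. Of 459 long noncoding RNAs 35 (7.63%) were at least 2-fold higher and 21 (4.58%) lower, against 3.1% and 4.21% of all genes. Host genes of small nucleolar RNAs had a median of 0.53 over 18 genes. SNHG7 was at 163 FPKM with both drugs, 62.4 with As2O3, 180 with GSK458 and 41.1 in the control, and SNHG6 was at 159, 107, 177 and 66.5 FPKM. SNHG9 was lower, at 25.7 FPKM with both drugs and 69.2 in the control.

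Of 35 kinesins, the motors of microtubule transport, 12 were at least 2-fold lower, against 4.21% of all genes, and none higher. Among them were KIF20A and KIF11, motors of the mitotic spindle that also stand in the mitotic list. Over the whole family 17 were higher and 18 lower by any amount, with a median of −0.03. The tubulin TUBA1B, which shares sequence with its relatives, was at 138 FPKM with both drugs, 594 with As2O3, 82.9 with GSK458 and 535 in the control. Among 195 solute carriers 8 were higher and 3 lower by 2-fold or more, a higher share close to the 3.1% of all genes. SLC6A6, the taurine transporter, was at 52.2 FPKM with both drugs, 60.9 with As2O3, 31.4 with GSK458 and 17.4 in the control. SLC34A2, a phosphate transporter, was at 45.1 FPKM with both drugs and 135 in the control. Zinc finger genes of the ZNF series were seldom called, with 5 of 404 higher and 3 lower, against 3.1% and 4.21% of all genes.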
